A study of Homo sapiens with 31 samples.

Results

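The 10 abundant long noncoding RNAs described here were followed in NALM-6, an established line of B-cell precursor acute lymphoblastic leukemia (ALL), after lentiviral transduction with short hairpin RNAs (shRNAs). They were MALAT1, NEAT1, GAS5, SNHG1, SNHG5, SNHG6, SNHG8, ZFAS1, EPB41L4A-AS1 and NORAD, taken by matching their Ensembl identifiers to these symbols, and all 10 had a row among the 30667 genes of the table. The 31 samples were profiled with prime-seq, a bulk protocol that primes on poly(A) and counts unique molecular identifiers (UMIs) at transcript 3′ ends. An EF1a or an SFFV promoter drove dsRED with a miR30-based shRNA in its 3′ region, directed either against XIAP, an inhibitor of caspases, or, in sh-CTRL cells, against eGFP. EF1a/sh-XIAP served as the moderate and SFFV/sh-XIAP as the strong knockdown. On days 4, 10 and 13 after transduction there were 3, 3 and 3 samples of EF1a/sh-CTRL, 2, 2 and 3 of EF1a/sh-XIAP, 3, 2 and 2 of SFFV/sh-CTRL and 2, 3 and 3 of SFFV/sh-XIAP. The sh-CTRL cells also carried mTagBFP and the sh-XIAP cells eGFP, so that the fluorescent marker and the hairpin changed together. All samples came from a single cell line, and nothing in the labels tied samples to separate cultures, so that p-values measured the spread between these samples only. The sample labels described the cells as grown in vitro, whereas the series description placed them in murine bone marrow.

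The members fall into 3 kinds. MALAT1 and NEAT1 are nuclear RNAs transcribed from neighbouring genes. MALAT1 resides in nuclear speckles and NEAT1 is the scaffold of paraspeckles, while the 3′ end of MALAT1 and of the long NEAT1 isoform is formed without a poly(A) tail, so that oligo(dT) priming can sample them incompletely. GAS5, the SNHG genes, ZFAS1 and EPB41L4A-AS1 host small nucleolar RNAs (snoRNAs) in their introns. Their spliced exons code for little or nothing, are often removed by nonsense-mediated decay (NMD) once ribosomes engage them, and in several hosts start with the 5′ terminal oligopyrimidine (TOP) tract that ribosomal protein mRNAs also carry. NORAD is a cytoplasmic RNA with many binding sites for Pumilio proteins, which repress mRNAs.

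In the GENCODE 29 annotation of GRCh38, NEAT1 (chr11:65422774-65445540) and MALAT1 (chr11:65497688-65506516) lie on the plus strand of chromosome 11, and SNHG1 (chr11:62851988-62855914) on its minus strand. GAS5 is at chr1:173863900-173868882, SNHG5 at chr6:85660950-85678748 and NORAD at chr20:36045622-36050960, all on the minus strand. ZFAS1 (chr20:49278178-49295738), SNHG8 (chr4:118278709-118279823) and EPB41L4A-AS1 (chr5:112160526-112164276) are on the plus strand. GAS5 overlaps GAS5-AS1 and ZBTB37 on the other strand, SNHG6 overlaps MCMDC2, ZFAS1 overlaps ZNFX1, and EPB41L4A-AS1 overlaps EPB41L4A. Summed over the 31 samples these partners had 386, 318, 508, 928 and 137 UMIs. Whether counting used strand was not given in the sources used here, so that UMIs of a member and of its partner cannot be told apart with certainty.

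The first transcribed bases of several hosts are shown because the TOP tract is the sequence feature that would tie them to ribosomal protein mRNAs. RefSeq (GRCh38.p14) gave a start for 8 of the 10 members, and NEAT1 and SNHG6 had no entry. Each line holds 10 bases before and 20 bases from the annotated start, 5′ to 3′ on the transcript's strand. Capitals mark a C at the first base with at least 4 pyrimidines after it, of which the first 4 are capitalised, as found in SNHG5 (chr6:85678714-85678743, minus strand) and ZFAS1 (chr20:49278632-49278661, plus strand) but not in SNHG1 (chr11:62855866-62855895, minus strand), SNHG8 (chr4:118278752-118278781, plus strand) or NORAD (chr20:36050941-36050970, minus strand).
SNHG5: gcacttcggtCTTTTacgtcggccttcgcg
ZFAS1: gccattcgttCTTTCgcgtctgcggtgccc
SNHG1: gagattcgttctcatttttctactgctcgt
SNHG8: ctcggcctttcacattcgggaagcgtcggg
NORAD: ctgccaagtcagttccggtccggcagagat

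This start was present in 2 of the 8 members, in 4 of 15 other snoRNA hosts, in 47 of 63 ribosomal protein genes, in 10 of 11 other TOP mRNAs and in 1429 of 35116 promoters of all genes (4.07%). The match asks for the exact annotated base, and an annotated start can lie a few bases from the base used in cells. For GAS5 the RefSeq start was 173869045 on the minus strand, upstream of the GENCODE gene, which starts at 173868882 on that strand. Its sequence and that of EPB41L4A-AS1, neither with the tract, are not shown. Among the GENCODE 29 transcripts, which list several starts for a gene, 6 of 29 of GAS5, 3 of 5 of SNHG6, 3 of 10 of ZFAS1, 3 of 23 of SNHG5, 1 of 25 of SNHG1 and 1 of 5 of SNHG8 began this way, against 2.41% of all transcripts, whereas none of MALAT1, NEAT1, EPB41L4A-AS1 or NORAD did. Of the 6 snoRNA hosts with a RefSeq start, 2 therefore carried the tract there, and of all 7 hosts 6 carried it at one or more GENCODE starts. The latter count rises with the number of transcripts listed for a gene, and no count per gene over all genes stands beside it. SNHG1 entered it on 1 of 25 transcripts.

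Samples held 312852 to 1153668 UMIs (median 603822), and day 4 was the deepest day, with a median of 751953 UMIs against 482267 on day 10 and 603822 on day 13. The 10 B-precursor markers, among them PAX5 and VPREB1, were detected and summed to 4502 to 5217 counts scaled to 1000000 UMIs per sample (CPM). The 6 T and NK cell markers summed to 3 to 23 UMIs per sample with CD3D and CD3E without a row, the 6 myeloid markers to 2 to 17 UMIs with S100A9 at 0 or 1, and the 5 erythroid markers to 0 to 4 UMIs with HBA1 and HBA2 without a row. TRAC and NKG7 were present in every sample, at 1 to 15 and 1 to 10 UMIs, and LYZ and CST3 reached 7 and 9. In CPM the T and NK, myeloid and erythroid sums ran from 6.22 to 28.1, 3.64 to 32.0 and 0 to 5.29. XIAP itself had only 2 to 14 UMIs per sample (median 6). Its median level was 10.4 CPM in EF1a/sh-CTRL, 9.52 in EF1a/sh-XIAP, 7.55 in SFFV/sh-CTRL and 8.24 in SFFV/sh-XIAP, with overlapping ranges. These counts were too few to check the knockdown in single samples. The median of SFFV/sh-XIAP was not below that of SFFV/sh-CTRL, so that a lower XIAP RNA was not seen in the strong knockdown here. The study measured the knockdown on the protein by Western blot. Mitochondrial UMIs made up 1.76% to 2.12% of a sample and ribosomal protein UMIs 12.4% to 14.4%.

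Together the 10 noncoding RNAs took 0.312% to 0.360% of all UMIs in a sample (median 0.338%), and each was present in every sample. MALAT1 reached 1611 ± 88.8 CPM (SD, n = 31), from 444 to 2020 UMIs in a sample. NEAT1 stood at 227 ± 24.7 CPM. Among the snoRNA hosts, GAS5 was at 328 ± 16.2, SNHG5 at 243 ± 22.6, SNHG6 at 188 ± 21.02, SNHG1 at 174 ± 19.96, SNHG8 at 117 ± 12.5, ZFAS1 at 115 ± 15.9 and EPB41L4A-AS1 at 46.3 ± 9.85 CPM. NORAD was at 327 ± 27.1 CPM. These are UMIs at transcript 3′ ends and not levels per length, and the capture of a 3′ end can differ between genes, so that each RNA is followed across samples rather than ranked against the others.

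**Figure D1:**
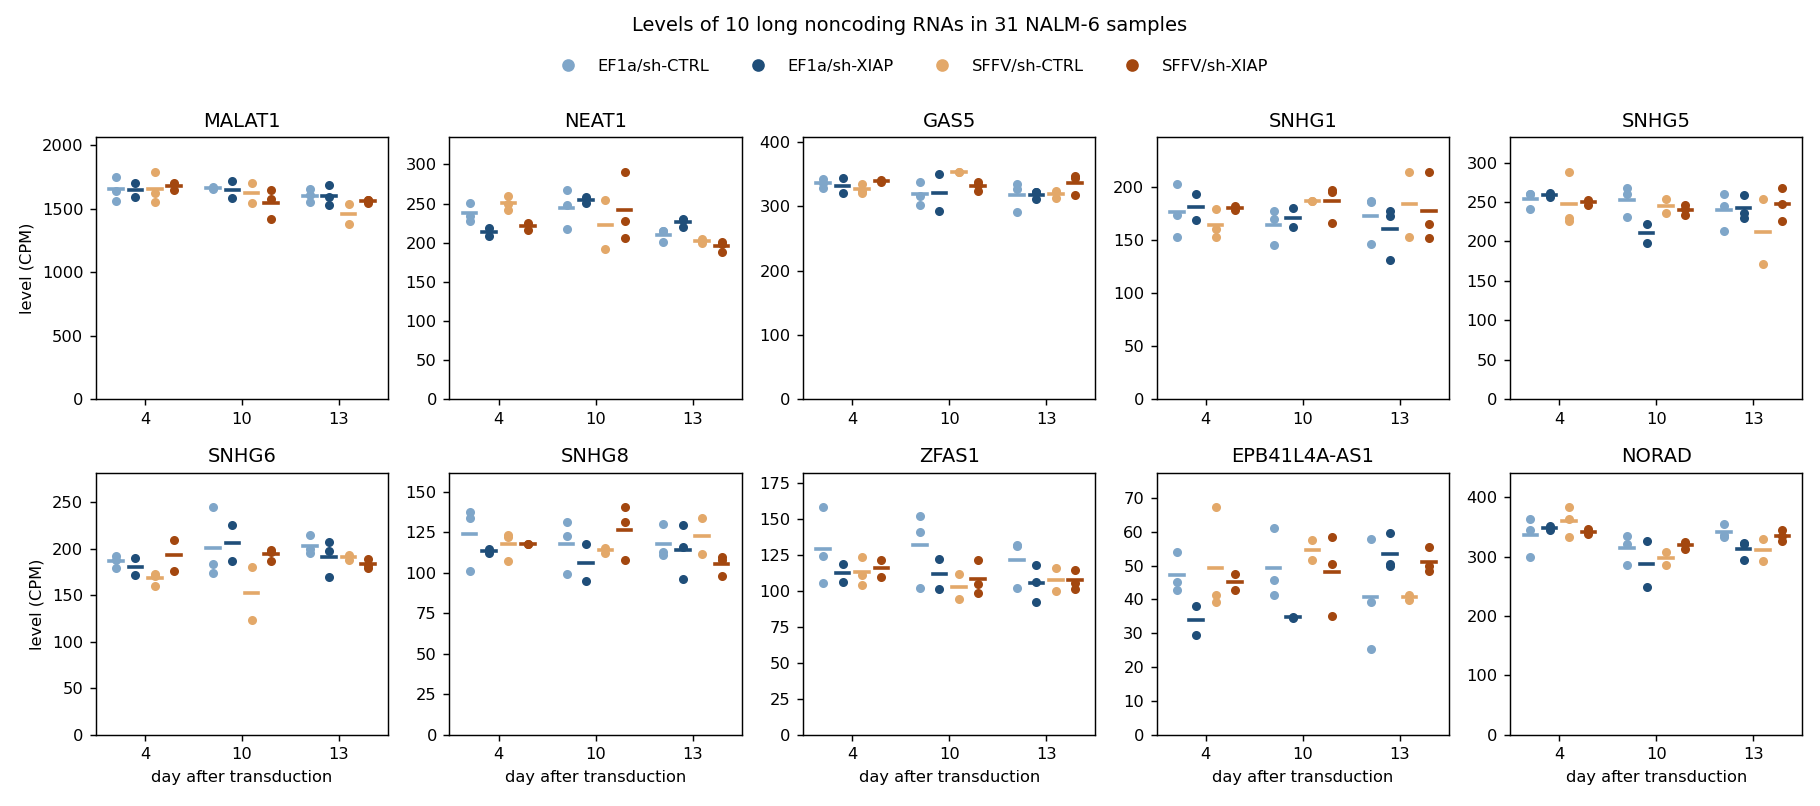
Level (CPM, linear axes from 0) of each of the 10 long noncoding RNAs in every sample (points) by day after transduction and construct (colour), with the mean of each group of 2 or 3 samples as a bar. NORAD stood at a mean of 347 CPM on day 4 and 307 CPM on day 10, while MALAT1 ranged only from 1376 to 1791 CPM over all 31 samples.

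The spread over the 31 samples was close to counting noise for most of these RNAs. The chi-square per degree of freedom of the UMIs, given each sample's total, is about 1 where samples differ by counting alone, and its median was 1.14 over 4633 genes with 900 to 34000 UMIs in all, the span that holds the members, with the 10th percentile at 0.788 and the 90th at 1.67. SNHG5, SNHG6, ZFAS1, EPB41L4A-AS1, NORAD, SNHG1 and NEAT1 lay between 1.21 and 1.49, inside that range. MALAT1, the RNA with the most UMIs, lay above it at 2.62. The ratio grows with UMIs for the same spread between samples and MALAT1 is at the top of that span, so that its place is not a comparison with genes of like counts. Its coefficient of variation was 5.51%, where counting alone would give about 3.22%. GAS5 lay at the other end, at 0.429, the lowest of the 4633 genes, with a coefficient of variation of 4.92% against 7.14% from counting. SNHG8 was also low, at 0.786. The level of GAS5 thus ran from 291 to 354 CPM over all constructs and days, a range that counting noise covers.

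Differences were fitted with limma-voom across all tested genes in a model of construct and day, and a gene was called at an adjusted p of at most 0.25 over all of them, the threshold of the study. All 10 members passed the filter on low counts in every comparison. The first comparison asks how the RNAs changed from day 4 to the later days, over the 4 constructs.

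MALAT1 and NORAD were called lower on days 10 and 13 than on day 4, and the other 8 were not called, beside 0.464% of 17676 tested genes called. NORAD ranged from 300.3 to 384 CPM on day 4 (median 346, n = 10), from 249 to 336 on day 10 (median 317, n = 10) and from 293 to 354 on day 13 (median 330.1, n = 11). The day 4 samples were high as a group, though the ranges overlapped. The difference was −0.15 on the log2 scale (SE 0.0373, adjusted p = 0.0957). An exact permutation test within constructs, unadjusted, gave p = 0.00564 (two-sided). edgeR's quasi-likelihood test and DESeq2 also called NORAD, with adjusted p of 0.181 and 0.131. Between the mean of day 4 and the mean of both later days, NORAD went from 336 to 328 CPM in EF1a/sh-CTRL, from 349 to 303 in EF1a/sh-XIAP, from 360.2 to 305 in SFFV/sh-CTRL and from 342 to 328 in SFFV/sh-XIAP. The later mean was lower in 4 of 4 constructs. In EF1a/sh-CTRL, however, only day 10 was lower, at 315 CPM, while day 13 stood at 341 CPM, above day 4.

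MALAT1 ranged from 1555 to 1791 CPM on day 4 (median 1646, n = 10), from 1419 to 1714 on day 10 (median 1651, n = 10) and from 1376 to 1684 on day 13 (median 1566, n = 11). The ranges overlapped broadly and the medians of days 4 and 10 were nearly the same. The difference of both later days from day 4 was −0.07 on the log2 scale (SE 0.0175, adjusted p = 0.0605 by limma-voom), and the exact permutation test within constructs gave p = 0.0501. MALAT1 was not called by edgeR's quasi-likelihood test (adjusted p = 0.732) or by DESeq2 (adjusted p = 0.467). The mean went from 1651 to 1633 CPM in EF1a/sh-CTRL, from 1648 to 1622 in EF1a/sh-XIAP, from 1656 to 1539 in SFFV/sh-CTRL and from 1676 to 1554 in SFFV/sh-XIAP, and it too was lower in 4 of 4 constructs. On day 10 alone the MALAT1 mean was 1663 CPM in EF1a/sh-CTRL and 1650 in EF1a/sh-XIAP, not below day 4. SNHG5 and ZFAS1, which were not called, also had a lower later mean in 4 of 4 constructs. The share of all genes with this pattern was not computed.

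Single day 4 samples decided both calls. Without EF1a/sh-CTRL day 4 replicate 3, neither was called (adjusted p = 0.271 for NORAD and 0.316 for MALAT1). NORAD was also lost without EF1a/sh-XIAP day 4 replicate 1 (0.360) or SFFV/sh-CTRL day 4 replicate 2 (0.252), and MALAT1 without SFFV/sh-XIAP day 4 replicate 1 (0.295) or replicate 3 (0.402), while both differences kept their sign. Depth and the mitochondrial share moved with the day, the latter from a mean of 1.94% on day 4 to 1.87% and 1.83% on days 10 and 13, and their part in the result was not tested beyond a fit with depth as a covariate, in which both RNAs remained called (adjusted p = 0.146 for NORAD and 0.153 for MALAT1). In bulk RNA, fewer cells of a kind and less RNA per cell cannot be told apart.

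The other 8 differences from day 4 ran from −0.10 on the log2 scale for SNHG5 (SE 0.0491, adjusted p = 0.781) to 0.10 for EPB41L4A-AS1 (SE 0.113, adjusted p = 0.945). The 95% interval of GAS5 was −0.10 to 0.03, that of NEAT1 −0.16 to 0.04, that of SNHG6 −0.07 to 0.14 and that of ZFAS1 −0.18 to 0.09. SNHG1 and SNHG8, with differences of −0.05 and −0.04, had SEs of 0.0621 and 0.0662. The median difference was −0.04 over the 10 members and −0.00143 over all genes tested, and 8 of the 10 values were below 0.

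Related genes were read beside the members. Of 18 other snoRNA hosts, 16 NMD factors, 11 tested proteins of speckles and paraspeckles, and the 3 listed NORAD partners, among them the Pumilio genes, none was called between day 4 and the later days, by limma-voom, edgeR or DESeq2. Of these, 0, 3, 1 and 0 had an unadjusted p under 0.05, beside 6.35% of all tested genes. Among 15 other TOP mRNAs TPT1 was called lower (−0.06 on the log2 scale, adjusted p = 0.00120), and among 79 ribosomal protein genes RPS18, RPS19, RPS12 and RPL23 were called lower, by −0.19 to −0.07 on the log2 scale, whereas edgeR and DESeq2 called none of these 5 genes. DESeq2 instead called 2 other ribosomal protein genes, RPS2 (adjusted p = 0.151) and RPL41 (adjusted p = 0.169), which were higher on the later days by 0.06 and 0.08 on the log2 scale of limma-voom. The ribosomal protein genes called thus differed in direction between the tools. IGLL1, the surrogate light chain gene among the B-precursor markers, was called higher (0.13 on the log2 scale, adjusted p = 0.000842), and its relation to the members was not tested.

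Between day 10 and day 13, no member was called, beside 0.0226% of tested genes called, with 2 members at an unadjusted p under 0.05 and none called by edgeR or DESeq2. The 2 were NEAT1 and NORAD. NEAT1 ranged from 192 to 291 CPM on day 10 (median 249) and from 188 to 229.9 on day 13 (median 205). The mean of day 13 was below that of day 10 in 4 of 4 constructs, by 0.14 to 0.30 on the log2 scale of the means, but the day 10 samples were scattered and the ranges overlapped. The fitted difference was −0.16 on the log2 scale (SE 0.0556, adjusted p = 0.755 by limma-voom), while the exact permutation test within constructs, unadjusted, gave p = 0.00117. NORAD was higher on day 13 by 0.12 on the log2 scale (SE 0.0422, adjusted p = 0.724), with an unadjusted exact p of 0.0265. Among all tested genes 5.98% had an unadjusted p under 0.05 in this comparison.

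The knockdown comparisons ask whether these RNAs differed on days 10 and 13 between sh-XIAP and sh-CTRL cells, XIAP being an antagonist of apoptosis. None of the 10 was called in SFFV/sh-XIAP against SFFV/sh-CTRL, beside 0.0792% of 17683 genes called, or in EF1a/sh-XIAP against EF1a/sh-CTRL, beside 0.017%. No member had an unadjusted limma-voom p under 0.05 in either comparison, and edgeR and DESeq2 called none. In the strong knockdown the differences ran from −0.09 on the log2 scale for SNHG8 (SE 0.123) to 0.13 for SNHG6 (SE 0.109). In SFFV/sh-CTRL, SNHG6 was at 124, 181, 194 and 188 CPM, and in the 6 samples of SFFV/sh-XIAP it lay between 179 and 198 CPM with a median of 188. A single low SFFV/sh-CTRL sample of day 10 lay apart, and the other samples overlapped. Without it, replicate 1, the SNHG6 difference was 0.01, and over leaving out each sample in turn it ran to 0.21, without SFFV/sh-CTRL day 13 replicate 1.

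The intervals show what these samples could have resolved. In the strong knockdown the 95% interval was −0.04 to 0.08 for MALAT1, −0.18 to 0.18 for NEAT1, −0.16 to 0.11 for GAS5, −0.07 to 0.22 for NORAD and −0.35 to 0.43 for EPB41L4A-AS1, all on the log2 scale. In the moderate knockdown it was −0.06 to 0.05 for MALAT1, −0.07 to 0.25 for NEAT1, −0.12 to 0.14 for GAS5 and −0.24 to 0.02 for NORAD. NORAD stood at 305 ± 19.3 CPM (n = 4) in SFFV/sh-CTRL and at 328 ± 11.3 (n = 6) in SFFV/sh-XIAP, and at 328 ± 22.9 (n = 6) in EF1a/sh-CTRL and 303 ± 32.9 (n = 5) in EF1a/sh-XIAP. The unadjusted exact permutation p within days was 0.02 for the first pair and 0.115 for the second.

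ZFAS1 gave the lowest value of the moderate knockdown. It stood at 127 ± 20.7 CPM (n = 6) in EF1a/sh-CTRL and at 108 ± 12.2 (n = 5) in EF1a/sh-XIAP, a difference of −0.24 on the log2 scale (SE 0.118, adjusted p = 0.992, exact permutation p = 0.135), and the ranges of 102 to 152 and 92.3 to 122 CPM overlapped. At the high end was EPB41L4A-AS1 with 0.14 (SE 0.192), which came to −0.01 without EF1a/sh-CTRL day 13 replicate 3. The difference between both knockdowns, tested as an interaction, called no member beside 0.00566% of genes, with none at an unadjusted p under 0.05 and none called by edgeR or DESeq2. It ran from −0.10 for EPB41L4A-AS1 to 0.23 for ZFAS1 on the log2 scale. None of the other snoRNA hosts, other TOP mRNAs, NMD factors, speckle genes or NORAD partners was called in either knockdown by limma-voom, edgeR or DESeq2. In that order, 2, 2, 0, 1 and 0 of them had an unadjusted p under 0.05 in the strong and 1, 1, 1, 0 and 0 in the moderate knockdown. Over all tested genes the share was 5.59% in the strong and 4.63% in the moderate knockdown. Of the 79 ribosomal protein genes, limma-voom called 2 lower in the strong knockdown, and 1 higher and 1 lower in the moderate one. edgeR called 3 of them in the strong and 1 in the moderate knockdown, and DESeq2 called none.

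On day 4, shortly after transduction, no member was called between the sh-XIAP and the sh-CTRL samples of both promoters, beside 0.0709% of 18336 genes called, and 1 member, NEAT1, had an unadjusted p under 0.05, while edgeR and DESeq2 called none. Of all tested genes 4.86% had an unadjusted p under 0.05 on day 4. NEAT1 was at 219, 208, 226 and 216 CPM in the 4 sh-XIAP samples, and at 251, 228, 234, 242, 260.1 and 249 CPM in the 6 sh-CTRL samples. All sh-XIAP values were below all sh-CTRL values, a separation in either direction seen in 0.922% of the tested genes. The difference was −0.16 on the log2 scale (SE 0.0726, adjusted p = 0.989), and the exact permutation test within promoters gave p = 0.01, the smallest that its 100 arrangements allow. On days 10 and 13 the fitted NEAT1 difference was near 0 in the strong knockdown (SE 0.0909) and 0.09 in the moderate one (SE 0.0830), and whether these differ from day 4 was not tested. EPB41L4A-AS1 had a day 4 value of −0.27 (SE 0.173), from 39.5 ± 7.68 CPM (n = 4) in sh-XIAP and 48.3 ± 10.6 (n = 6) in sh-CTRL samples, and this value was −0.13 without EF1a/sh-XIAP day 4 replicate 2.

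Between the control constructs, SFFV/sh-CTRL against EF1a/sh-CTRL on days 10 and 13, no member was called by limma-voom, edgeR or DESeq2, beside 0.00566% of genes called by limma-voom. MALAT1 had the only unadjusted p under 0.05, with 1539 ± 132 CPM (n = 4) against 1633 ± 47.7 (n = 6) and a difference of −0.07 on the log2 scale (SE 0.0316, adjusted p = 0.923). The other values ran from −0.25 for ZFAS1 (SE 0.130) to 0.17 for EPB41L4A-AS1 (SE 0.205). An unadjusted p under 0.05 was seen for 5.15% of all tested genes. Without SFFV/sh-CTRL day 10 replicate 1 the MALAT1 difference was −0.12, and EPB41L4A-AS1 ran from 0.0136 without EF1a/sh-CTRL day 13 replicate 3 to 0.26 without replicate 1 of the same group.

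The last question was whether samples with more ribosomal protein RNA also held more of the TOP-related snoRNA hosts. The ribosomal protein level was the log2 of the summed CPM of 79 genes. No member was called for it in a limma-voom model that also held construct and day, beside 1.53% of genes called, none had an unadjusted p under 0.05, and edgeR and DESeq2 called none. The coefficients ran from −0.05 per SD of that level on the log2 scale for EPB41L4A-AS1 (SE 0.0622) to 0.07 for ZFAS1 (SE 0.0360, adjusted p = 0.605). None of the 18 other snoRNA hosts and none of the 15 other TOP mRNAs was called. At an unadjusted p under 0.05 were 1 and 3 of them, beside 8.59% of all tested genes. edgeR called 0 and 0 of these and DESeq2 0 and 1. Of the 79 ribosomal protein genes in the sum, 10 were called higher with it and 7 lower. Their coefficients were above 0 for 35 and below 0 for 44 (median −0.00126). The fit thus did not follow these genes as a class, and it cannot decide whether the hosts follow them.

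Across the 31 samples, the snoRNA hosts showed no relation of one sign with the ribosomal protein level on the log2 CPM scale. SNHG1 had r = −0.186 (permutation p = 0.315), SNHG6 r = 0.0767 (permutation p = 0.680) and EPB41L4A-AS1 r = −0.295 (permutation p = 0.105). GAS5 had r = −0.201 (permutation p = 0.278, rho = −0.209, p = 0.256), SNHG5 r = −0.279 (p = 0.130, rho = −0.321, p = 0.0798), SNHG8 r = 0.2504 (p = 0.175, rho = 0.158, p = 0.392) and ZFAS1 r = 0.239 (p = 0.194, rho = 0.135, p = 0.469). ZFAS1 fell to r = −0.0215 and SNHG8 to 0.0125 without the 2 samples farthest from the median ribosomal protein level, EF1a/sh-CTRL day 4 replicate 2 and SFFV/sh-XIAP day 10 replicate 2, which rested on 372930 and 312852 UMIs. With CPM scaled by TMM factors SNHG8 had r = 0.404 (permutation p = 0.0242, rho = 0.257, p = 0.164). Within days the values changed sign for some hosts. SNHG1 went from r = −0.757 on day 4 over −0.414 on day 10 to 0.261 on day 13 (10, 10 and 11 samples), with unadjusted permutation p of 0.00642, 0.234 and 0.436. ZFAS1 had r = 0.714 on day 4 (unadjusted permutation p = 0.0486, rho = 0.212, p = 0.561). EPB41L4A-AS1 had r = −0.669 on day 10 (unadjusted permutation p = 0.0292, rho = −0.515, p = 0.134).

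MALAT1 had r = −0.535 (permutation p = 0.00196, rho = −0.413, p = 0.0223), the only one of the 10 relations with p under 0.05 over all samples. Within days 4, 10 and 13 r was −0.589, −0.558 and −0.491 (permutation p = 0.0643, 0.0986 and 0.123), but rho was −0.564, 0.00606 and −0.409 (permutation p = 0.0958, 1.0 and 0.212), so that the ranks of day 10 showed no relation. Without the 2 farthest samples r was −0.454 (permutation p = 0.0130) and rho −0.313 (permutation p = 0.100). With construct and day means removed r was −0.604 (permutation p = 0.000340) and rho −0.437 (permutation p = 0.0147). The value depended on scaling. With MALAT1 scaled to the UMIs outside ribosomal protein genes r was −0.460 (permutation p = 0.00964) and rho −0.334 (permutation p = 0.0679). With CPM scaled by TMM factors, which ranged only from 0.957 to 1.03, r was −0.294 (permutation p = 0.107), and the limma-voom coefficient was −0.01 per SD (SE 0.00976, adjusted p = 0.761). The ribosomal protein level itself fell with the depth of the sample, with r = −0.770 to log2 total UMIs (permutation p = 1e-05, the smallest that the permutations can give) and −0.963, −0.825 and −0.890 within the days. With log2 total UMIs removed from both, r for MALAT1 was −0.372 (permutation p = 0.0385), and the part of depth in the remaining relation was not tested further. Among 7833 genes with a mean of at least 20 CPM, ribosomal protein genes left out, the median r was −0.150, and 2.23% of them had an r at or below that of MALAT1.

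The members did not rise and fall together. Over the 45 pairs and 31 samples, the correlation of log2 CPM had a median of −0.0251 and ran from −0.563 (GAS5 and SNHG6) to 0.311 (GAS5 and EPB41L4A-AS1), as a description of values that share library and depth. The gene most like MALAT1 among 7036 genes with a mean of at least 20 CPM was UBA6, an enzyme that activates ubiquitin (r = 0.691, 31 samples), and CALM2, a calmodulin gene, had r = 0.673. MSL1 was among those most like NEAT1 (r = 0.654). For GAS5 it was RPL7L1, a relative of a ribosomal protein gene (r = 0.731), followed by the arginine methyltransferase PRMT1 (r = 0.666). PRDX1, a peroxiredoxin gene, was among those most like NORAD (r = 0.644).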

How the data were processed

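The deposited table holds raw UMI counts per Ensembl gene for 31 samples, made by the authors from prime-seq libraries. Per the labels' processing notes STAR 2.6.0a was used, with hg38, mm10, GRCh38 and GRCm38 named as builds without a role. The annotation, the counting program and its use of strand were not given in the sources used here. Symbols were matched for 30548 of 30667 identifiers. The members and gene lists were chosen with earlier results of these data known. CPM were computed from all UMIs of a sample. Genes above 1 CPM in at least 1/3 of the samples of a fit were tested with limma-voom (limma 3.58.1, TMM factors from edgeR 4.0.16) on a model of construct and day, with Benjamini-Hochberg adjustment and a threshold of 0.25. The study left out samples that stood apart in a principal component analysis, which the labels do not identify, and all samples of the table were used here. Alternatives were edgeR's quasi-likelihood test, DESeq2 1.42.0, its size factors, totals without TMM, no filter, depth as a covariate, counts thinned to the smallest total, a replicate block and leaving out each sample. Exact permutation tests shuffled labels within constructs, days or promoters on log2 CPM, and correlations used 100000 permutations. The fits were also run on simulated data, with changes larger than any member difference given here, so that effects of the members' size were not covered. Named genes were the members, and for each the genes of highest correlation across samples.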

Additional observations from a re-analysis of the deposited data

How the results depend on the processing

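The count of members called between day 4 and the later days, 2 by limma-voom, was 0 at an adjusted p of at most 0.05 and 0 within the sh-CTRL constructs alone. It was 1, NORAD, with edgeR's quasi-likelihood test, DESeq2, DESeq2 size factors, totals without TMM and counts thinned to the smallest total, and 0 to 2 when each sample was left out in turn. A replicate block kept both (count 2, adjusted p = 0.0936 for NORAD and 0.0248 for MALAT1) and changed no other call of a member, although the numbers do not pair the samples (mean r of deviations −0.0143 over 28 same-numbered pairs of one construct and −0.00153 over 121 of different constructs, against 0.00217 over 290 pairs of different numbers). Without the filter on low counts the count was 3, in a fit that called 6009 genes in all and cannot be read. Over the alternatives that leave out no single sample, adjusted p ran from 0.0362 to 0.786 for NORAD and from 0.0248 to 0.761 for MALAT1. The 0.0362 came from the fit without the filter, and the next lowest value for NORAD was 0.0936, with the replicate block. For the ribosomal protein relation the count was 1 without TMM and 2 without the filter, a fit that called 15492 genes in all and cannot be read. In the other comparisons the count of members called stayed at 0 under each alternative run.

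Signs turned only among values that were not called. From day 4 to the later days SNHG1 came to 0.0173 on thinned counts, and within the sh-CTRL constructs ZFAS1 came to 0.0165 and EPB41L4A-AS1 to −0.0586 (log2). For the knockdowns with each day alone, a choice made after seeing the data, SNHG8 in the strong knockdown was 0.0660 and EPB41L4A-AS1 in the moderate one −0.41 on day 10, with 0.27 for its difference between the knockdowns, and SNHG6 in the strong knockdown was −0.0528 on day 13. Leaving out single samples gave −0.0935 to 0.00640 for SNHG8, −0.0112 to 0.2295 for EPB41L4A-AS1 and, between the knockdowns, −0.184 to 0.0850. Correlations with the ribosomal protein level turned sign on day 4 for NEAT1 (−0.0604), GAS5 (0.0709), SNHG6 (−0.0307) and EPB41L4A-AS1 (0.147), on day 13 for SNHG1 (0.261), with TMM scaling for GAS5 (0.191), SNHG1 (0.0103) and NORAD (0.00579), without the 2 farthest samples for NEAT1 (−0.0210) and ZFAS1 (−0.0215), and with depth removed, also chosen after seeing the data, for NEAT1 (−0.00595), GAS5 (0.0774) and NORAD (0.152). The cause was not tested. Of 52 other uncalled member values, 39 changed sign under some alternative, in 276 of 1754 recomputed values. Over days 10 and 13, in 40 sets of 4 to 6 samples (10 RNAs in 4 constructs), no sample's gap to the next passed Dixon's 95% critical value. In SFFV/sh-CTRL, SNHG8 (0.826) and SNHG6 (0.813) came close to the critical 0.829, with NEAT1 (0.793) and SNHG5 (0.790) next. NEAT1 in SFFV/sh-XIAP had 0.611 against 0.625. Sets of 2 or 3 samples, day 4 included, were not examined. With 11 to 58 UMIs per sample, EPB41L4A-AS1 had the widest intervals.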
